A study of Mus musculus with 10 samples.

Results

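The genes described here are 9 transcription factors and chromatin readers, outside the HOX clusters, that haematopoietic stem cells (HSCs) use or are known by: Mecom, Prdm16, Meis1, Nkx2-3, Hlf, Erg, Etv6, Mllt3 and Zfp521. They were chosen by name. For each gene the probe set was taken that carries it as its only gene symbol and has the highest mean over all 10 arrays, which gave 9 genes of 19938 with such a probe set. Mecom had 2 one-gene probe sets and each of the others had 1, and 0 probe sets shared a factor gene with another gene.

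The data are expression values from 10 Affymetrix Mouse Gene 1.0 ST arrays, 5 from Sox17-transgenic mice and 5 from wild-type littermates. The transgenic mice carried the (tetO)7CMVSox17-IRES-NucEGFP transgene together with the rtTA*M2 activator allele at the ROSA26 locus (B6.Cg-Gt(ROSA)26Sortm1, the Jae/J line), through which doxycycline turns Sox17 on in any cell that makes the activator. The labels do not say whether the littermates carried the activator alone. All mice were 8 weeks old and drank water with doxycycline (2 mg/ml) over 5 days. Each array held RNA of 10000 uncultured bone marrow cells, double-sorted as CD150+CD48-Lineage-Sca1+cKit+. The series' design text calls the aliquots independent, but no animal is named for any of them, so a p-value here reflects only how these samples vary, and some of that variation may be technical. The comparison asks what induced Sox17, a factor of endoderm, arterial endothelium and fetal HSCs, changes in adult HSCs.

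As background, adult HSCs rest for long times and give rise to all blood lineages, and both properties depend on a small network of nuclear factors. Mecom and Prdm16 are related PR-domain zinc finger proteins needed to keep HSCs. Meis1 is a homeodomain partner of HOX and PBX proteins. Hlf, a PAR bZIP factor, keeps HSCs at rest, and the ETS factors Erg and Etv6 are needed for adult HSCs to persist. Mllt3 (AF9) reads acylated histones through its YEATS domain and recruits elongation and DOT1L complexes. Zfp521 is a zinc finger protein of immature blood cells that holds back B-cell differentiation, and Nkx2-3 is a homeodomain protein best known from the vessels of spleen and gut. Several of these genes, Erg and Mecom among them, are also active in endothelium.

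Mecom and Prdm16 come from a common ancestral gene, and their upstream promoter windows are shown because they share a sequence. RefSeq promoter windows (build GRCm38.p6, 250 bases before to 50 after a start) were found for 8 of the 9 factor genes, 12 windows in all. The window of the outer Mecom start lies at chr3:30509710-30510009 on the minus strand and that of Prdm16 at chr4:154636824-154637123 on the minus strand. Both hold an identical run of 24 bases, in capitals below, from base 27 to base 50 after the Mecom start and from base 10 to base 33 after the Prdm16 start. Base 50 is the last of the Mecom window, so the shared sequence may be longer than this run.
Mecom: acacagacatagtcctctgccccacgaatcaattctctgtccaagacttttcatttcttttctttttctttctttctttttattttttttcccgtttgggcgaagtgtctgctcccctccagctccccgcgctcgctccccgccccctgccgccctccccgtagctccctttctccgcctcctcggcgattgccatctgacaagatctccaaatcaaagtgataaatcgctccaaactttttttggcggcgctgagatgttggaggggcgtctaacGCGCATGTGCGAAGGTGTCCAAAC
Prdm16: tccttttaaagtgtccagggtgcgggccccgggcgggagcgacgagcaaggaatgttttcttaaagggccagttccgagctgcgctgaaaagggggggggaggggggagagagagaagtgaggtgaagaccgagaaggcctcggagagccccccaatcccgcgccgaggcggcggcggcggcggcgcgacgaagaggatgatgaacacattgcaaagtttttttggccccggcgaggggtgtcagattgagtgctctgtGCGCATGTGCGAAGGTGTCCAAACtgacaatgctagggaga
Of 32851 promoter windows searched on both strands, 2 held this run, those of these 2 genes. In the other 60 pairs of windows from different factor genes the longest shared run had 14 bases.

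The windows of Mllt3 (chr4:88033358-88033657, minus strand) and Meis1 (chr11:19018920-19019219, minus strand) are shown for a gene that read higher and a gene that read lower on the transgenic arrays, with the core motif of SOX proteins (ACAAT or its complement ATTGT) in capitals.
Mllt3: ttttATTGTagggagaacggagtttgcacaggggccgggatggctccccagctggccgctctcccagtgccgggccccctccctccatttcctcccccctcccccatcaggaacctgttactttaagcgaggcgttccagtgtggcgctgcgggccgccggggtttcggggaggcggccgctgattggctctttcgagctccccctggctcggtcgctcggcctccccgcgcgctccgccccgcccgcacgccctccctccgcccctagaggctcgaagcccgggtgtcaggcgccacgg
Meis1: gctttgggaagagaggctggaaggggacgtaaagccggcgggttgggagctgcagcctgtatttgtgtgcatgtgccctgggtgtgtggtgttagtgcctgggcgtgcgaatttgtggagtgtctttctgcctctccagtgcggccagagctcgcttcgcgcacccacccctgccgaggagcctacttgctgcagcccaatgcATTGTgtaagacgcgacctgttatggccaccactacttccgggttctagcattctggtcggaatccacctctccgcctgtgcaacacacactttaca
The SOX core stood in 5 of the 12 windows, of 4 genes (Mllt3, Prdm16, Meis1 and Erg), against 31.0% of all 32851 windows. The MEIS core (TGACAG or its complement CTGTCA) stood in 3 of the 12 windows, of Mecom, Mllt3 and Erg, against 19.2% of all windows, and overlapped a SOX core in 0 of them. These matches describe letters and not binding, and they fall on genes with positive and with negative differences.

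The arrays set limits on every result. The Sox17 probe set was dim, with a mean at the 23.2 percentile of those tested, and averaged 4.37 ± 0.13 log2 units in the transgenic group and 4.21 ± 0.13 in the wild-type group (SD, n = 5 each; difference 0.16, limma adjusted p = 0.855), so the direction of each difference rests on the labels. Apart from the groups, the arrays fell into 2 sets along the leading principal component of what remained after each group's mean was subtracted (36.1% of that variance): transgenic arrays 1, 2 and 3 with wild-type arrays 1 and 2 (set A), and transgenic arrays 4 and 5 with wild-type arrays 3, 4 and 5 (set B). The sets are defined from these data, and the labels name no batch that would match them. Transgenic array 4 alone read as male (Xist was 4.32 there, 10.8 to 11.4 in the rest of its group and 10.9 to 11.3 in wild type), and the values without it are given below. In a sorted population, fewer cells of a type and less RNA per cell cannot be told apart.

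Of the genes of the gate, Slamf1 (CD150) and Kit were measured in the stem cell marker list, whose other members are known from HSCs but were not sorted on. All 9 measured genes of that list (Slamf1, Kit, Procr, Fgd5, Tek, Ctnnal1, Pdzk1ip1, Hoxb5 and Vwf) were brighter than the median tested probe set. Their mean level was 7.84 to 8.03 in the transgenic and 7.60 to 7.86 in the wild-type group. The single genes went both ways: 6 of the 9 differences were positive, and they ran from -0.47 to 1.28 log2 units. With an unadjusted p under 0.05 in limma 3 were higher and 1 was lower, against 3.7% and 2.9% of all tested probe sets. Cd48, which the gate selects against, read 6.29 ± 0.53 in transgenic and 4.96 ± 0.51 in wild-type cells (SD, n = 5 each; difference 1.34, limma adjusted p = 0.145). All 7 mast cell and basophil markers stayed below the median of all values on all 10 arrays, as did 7 of 12 lymphoid markers and 4 of 9 stromal markers.

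None of the 9 factor genes passed the threshold between the groups. The 4 largest differences were all positive: Zfp521 read 1.78-fold, Mecom 1.26-fold, Mllt3 1.23-fold and Prdm16 1.21-fold as high on the transgenic as on the wild-type arrays, and these 4 had an unadjusted p under 0.05. Meis1 and Etv6 differed by -0.16 and -0.14 log2 units, and Hlf and Erg by -0.00 and 0.09. Over all 23410 probe sets tested with limma, 33 passed an adjusted p of 0.05 (Benjamini-Hochberg over all of them), which is 0.141% (0.12% higher and 0.0214% lower). Of the factor genes 0 passed in limma, and 0 passed with array weights in the fit. An unadjusted p under 0.05 was found in limma for 4 of the 9, all higher. Of all tested probe sets 6.59% had such a p (3.7% higher and 2.9% lower). With array weights 4 of the 9 had such a p, and the share of all probe sets is not given for that fit. In 0 of the 9 did the transgenic and wild-type arrays lie wholly apart, against 1.47% of all tested probe sets. The median log2 difference was 0.19 over the 9 genes and -0.01 over all tested probe sets, and 6 of the 9 differences were positive against 46.3%. Members were chosen by name with earlier results of these data known, so these counts are a description.

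**Figure D1:**
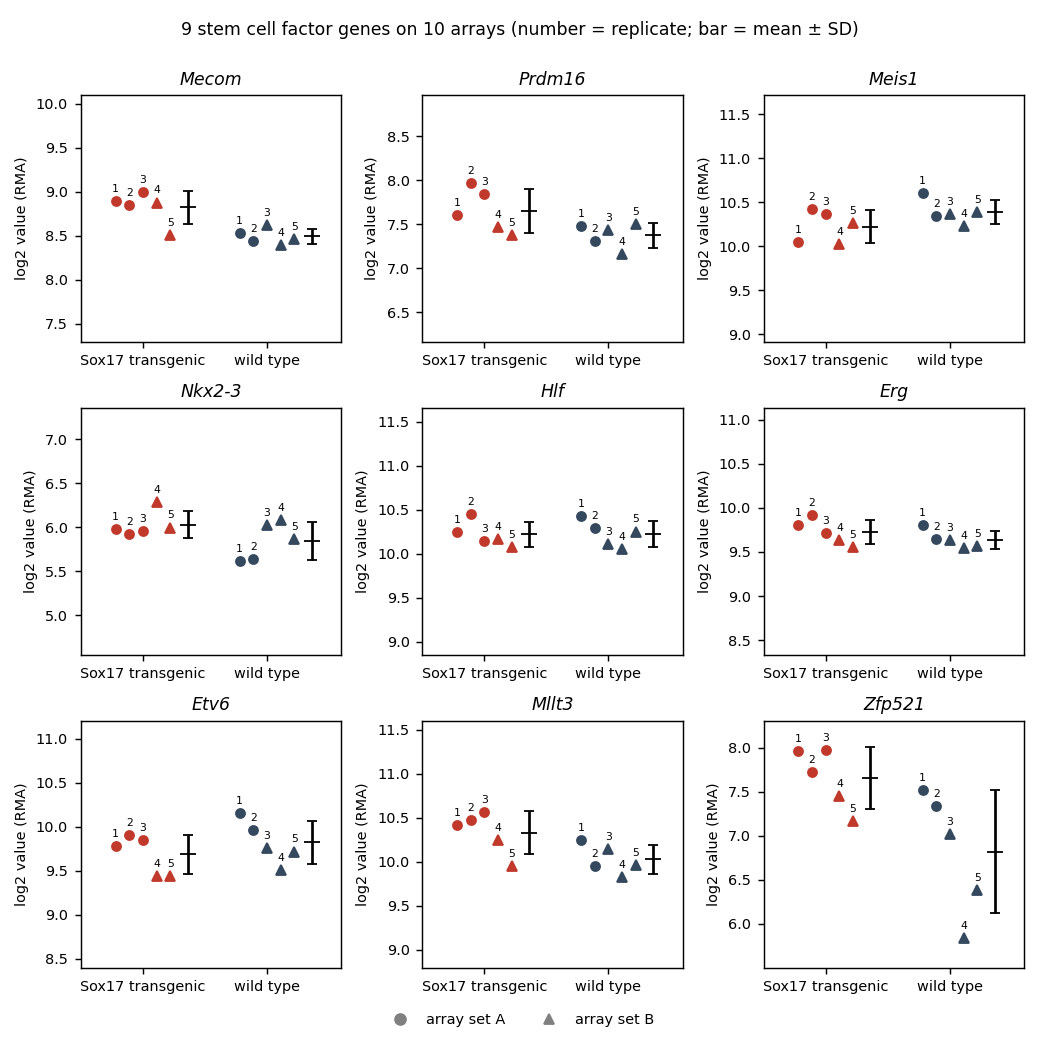
Each panel plots the log2 value of a factor gene (y axis, RMA units) on the 5 Sox17-transgenic arrays (left, red) and the 5 wild-type arrays (right, blue-grey), with the replicate number above each point, circles for array set A, triangles for set B, and the mean ± SD as a bar. All panels span the same number of log2 units. In Mecom 4 of 5 transgenic arrays lie above all wild-type arrays, and in all 9 genes the groups overlap.

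The PR-domain genes Mecom and Prdm16 both read higher on most transgenic arrays. Mecom read 8.90, 8.85, 8.99, 8.88 and 8.51 log2 units on transgenic arrays 1 to 5 and 8.54, 8.44, 8.63, 8.40 and 8.47 on wild-type arrays 1 to 5. Of the transgenic arrays 4 lay above every wild-type array, and array 5 lay among them. The difference was 0.33 (SE 0.10, 95% interval 0.12 to 0.55, limma unadjusted p = 0.00584, adjusted p = 0.383), the smallest p among the factor genes. It placed Mecom at the 95.7 percentile of all log2 differences and at rank 357 of all p-values.

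A second Mecom probe set, annotated to other transcripts of the gene with 1 model in common, did not show this order. It read 6.66, 6.93, 7.16, 6.22 and 4.74 on transgenic arrays 1 to 5 and 6.73, 6.24, 6.35, 5.51 and 5.96 on wild-type arrays 1 to 5. Transgenic array 5 was the lowest of all 10 arrays here and array 3 the highest. Its difference of 0.18 had an SE of 0.41 (limma adjusted p = 0.987) and set A alone gave 0.43 and set B alone -0.46. With both probe sets averaged, Mecom differed by 0.26 (limma adjusted p = 0.937 over all genes).

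Prdm16 read 7.61, 7.97, 7.85, 7.46 and 7.38 on transgenic arrays 1 to 5 and 7.48, 7.31, 7.43, 7.16 and 7.50 on wild-type arrays 1 to 5. Arrays 1, 2 and 3 of the transgenic group lay above all wild-type arrays, and arrays 4 and 5, both of set B, lay within the wild-type range. The difference was 0.28 (SE 0.12, 95% interval 0.01 to 0.55, adjusted p = 0.745 in limma). Set A alone gave 0.41 and set B alone 0.06.

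Mllt3 and Zfp521 differed in the same direction as the PR-domain genes. The chromatin reader gene Mllt3 read 10.41, 10.47, 10.57, 10.24 and 9.95 on transgenic arrays 1 to 5 and 10.25, 9.95, 10.14, 9.83 and 9.96 on wild-type arrays 1 to 5. Its transgenic arrays 1, 2 and 3 were above the highest wild-type array, array 4 was just below it and array 5 lower still. The difference was 0.30 (SE 0.13, 95% interval 0.02 to 0.58, limma adjusted p = 0.702), 0.38 within set A and 0.12 within set B.

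Zfp521 had the largest difference of the 9 genes and also the largest spread. It read 7.96, 7.73, 7.97, 7.45 and 7.16 on transgenic arrays 1 to 5 and 7.52, 7.34, 7.02, 5.84 and 6.38 on wild-type arrays 1 to 5. The transgenic arrays spanned less than 1 log2 unit, while wild-type arrays 4 and 5, both of set B, stood low. The groups overlapped between transgenic arrays 4 and 5 and wild-type arrays 1 and 2. The difference was 0.84 (SE 0.30, 95% interval 0.17 to 1.502, limma adjusted p = 0.558), at the 99.4 percentile of all differences. Set A alone gave 0.46 and set B alone 0.90, and the difference was 0.59 without wild-type array 4.

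The homeodomain genes differed little and in opposite directions. Meis1 read 10.05, 10.42, 10.37, 10.02 and 10.26 on transgenic arrays 1 to 5 and 10.61, 10.35, 10.37, 10.23 and 10.39 on wild-type arrays 1 to 5. Transgenic arrays 1 and 4 were the lowest and wild-type array 1 the highest. The difference was -0.16 (SE 0.10, 95% interval -0.39 to 0.07, limma adjusted p = 0.896), with -0.20 in set A alone and -0.19 in set B alone.

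Nkx2-3 read close to the median tested probe set. It gave 5.98, 5.92, 5.96, 6.29 and 5.996 on transgenic arrays 1 to 5 and 5.61, 5.63, 6.02, 6.08 and 5.87 on wild-type arrays 1 to 5. Wild-type arrays 1, 2 and 5 stood below all transgenic arrays, and wild-type arrays 3 and 4 of set B stood above 4 of them. The difference was 0.19 (SE 0.12, 95% interval -0.07 to 0.44, limma adjusted p = 0.893), 0.33 in set A alone and 0.15 in set B alone. It came to 0.12 once transgenic array 4 was left out.

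Hlf was almost level between the groups. It read 10.25, 10.46, 10.15, 10.17 and 10.08 on transgenic arrays 1 to 5 and 10.42, 10.29, 10.11, 10.05 and 10.25 on wild-type arrays 1 to 5, with a difference of -0.00 (SE 0.10, limma adjusted p = 0.999). The 95% interval of -0.22 to 0.21 runs from 0.859-fold to 1.16-fold, so larger changes lie outside it.

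Of the ETS genes, Erg read 9.81, 9.92, 9.72, 9.64 and 9.56 on transgenic arrays 1 to 5 and 9.81, 9.65, 9.63, 9.55 and 9.56 on wild-type arrays 1 to 5. The groups covered nearly the same range, and the difference of 0.09 (SE 0.09, 95% interval -0.11 to 0.28) had an adjusted p of 0.950 in limma and was 0.04 without transgenic array 2. Etv6 read 9.78, 9.90, 9.85, 9.44 and 9.44 on transgenic arrays 1 to 5 and 10.16, 9.96, 9.76, 9.51 and 9.72 on wild-type arrays 1 to 5. In both groups the arrays of set A were above those of set B. The difference of -0.14 (SE 0.14, adjusted p = 0.950 in limma) stood beside -0.21 in set A alone and -0.22 in set B alone. Leaving out transgenic array 4 or transgenic array 5 gave -0.08, leaving out wild-type array 1 gave -0.05, and leaving out wild-type array 4 gave -0.21.

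**Figure D2:**
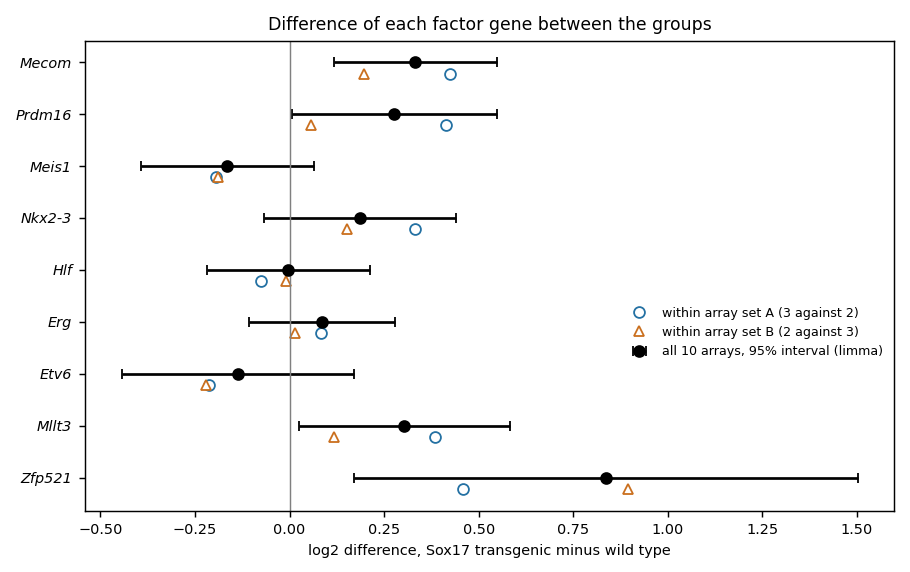
Black points give the log2 difference (x axis, Sox17 transgenic minus wild type) of each factor gene (y axis) from all 10 arrays, with the 95% limma interval. Open circles and triangles give the difference within array sets A (3 against 2 arrays) and B (2 against 3 arrays). The intervals of Mecom, Prdm16, Mllt3 and Zfp521 lie above 0, and Prdm16 is 0.41 in set A and 0.06 in set B.

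On the probe set taken for each gene, all 9 kept the sign of their difference in both array sets, as did 55% of all tested probe sets. The second Mecom probe set did not (0.43 in set A and -0.46 in set B). With the set as a block in limma, 91 of 23410 probe sets passed (0.389%) and again 0 of the 9 factor genes. With this block 5 factor genes had an unadjusted p under 0.05, against 8.34% of all: Mecom (0.31), Mllt3 (0.25), Zfp521 (0.68) and Nkx2-3 (0.24) were higher and Etv6 (-0.22) was lower. Their adjusted p lay between 0.265 for Zfp521 and 0.537 for Mllt3. The block removes residual spread by construction, since the sets were defined from these residuals. Within set A 4 probe sets and within set B 6 probe sets passed.

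Most of the factor genes also differed between the array sets. With the group in the model, 8 of the 9 read lower in set B than in set A, against 50.7% of all tested probe sets, by 0.11 (Mecom) to 0.80 (Zfp521) log2 units, and Nkx2-3 read 0.28 higher. Within the transgenic group, array 5 had the lowest value of 7 of the 9 genes and array 2 the highest of 5. Within the wild-type group, array 4 had the lowest value of 8 and array 1 the highest of 6. The mean deviation of the 9 genes from their own means over all arrays was 0.14, 0.24, 0.21, 0.01 and -0.13 on transgenic arrays 1 to 5, and 0.10, -0.06, -0.04, -0.32 and -0.15 on wild-type arrays 1 to 5.

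**Figure D3:**
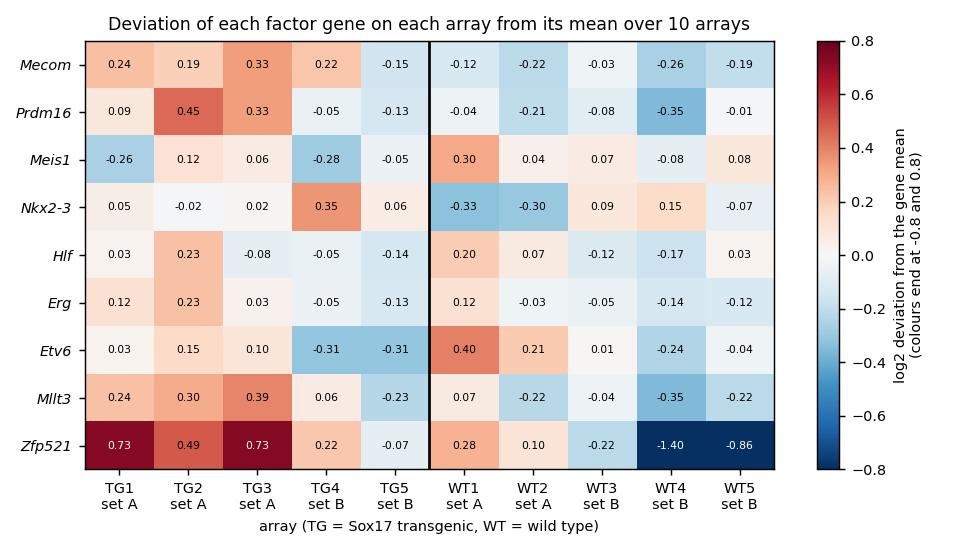
Each cell gives the log2 deviation of a factor gene (rows) on an array (columns, 5 Sox17 transgenic left of 5 wild type) from its mean over the 10 arrays, red above and blue below it, with colours ending at -0.8 and 0.8. Wild-type array 4 is lowest of its group in 8 of 9 genes and transgenic array 5 in 7 of 9.

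Leaving out transgenic array 5 gave the smallest adjusted p of Mecom and Mllt3 over all settings. Without it Mecom differed by 0.41 (limma adjusted p = 0.107), Mllt3 by 0.40 (adjusted p = 0.285) and Prdm16 by 0.35 (adjusted p = 0.474). Without transgenic array 4, the male array, Mecom differed by 0.32, Mllt3 by 0.32, Prdm16 by 0.32 and Zfp521 by 0.89. Nkx2-3 then differed by 0.12, Meis1 by -0.11, Etv6 by -0.08, Erg by 0.11 and Hlf by 0.01, and 4 factor genes again had an unadjusted p under 0.05. Leaving out transgenic arrays 1, 2 or 3 or wild-type arrays 2 or 4 left 2 such genes each. The share of all tested probe sets with such a p is not given for these fits. These counts therefore cannot be set against a background share.

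Some marker lists of other cell types read apart between the groups and others did not, and of all their genes Pf4 alone passed the threshold. The multipotent progenitor markers (Flt3, Cd48, Cd34 and Cd27 measured) had a mean level of 8.06 to 8.75 in the transgenic and 7.27 to 7.84 in the wild-type group, with transgenic array 5 highest and wild-type array 4 lowest. The 11 measured granulocyte and monocyte markers had 5.58 to 6.87 in the transgenic and 5.34 to 5.62 in the wild-type group, again highest on transgenic array 5, and 3 of the 11 stayed below the median of all values on every array. The 10 endothelial markers had 6.45 to 6.76 in the transgenic and 5.92 to 6.37 in the wild-type group, and 2 of the 10 stayed below that median. Megakaryocyte markers (6 measured) had 5.90 to 6.28 in the transgenic and 6.73 to 7.30 in the wild-type group, and Pf4 fell by 2.53 log2 units (limma adjusted p = 0.0112). Erythroid markers (8 measured) had 6.07 to 6.41 in the transgenic and 6.45 to 6.74 in the wild-type group, and cycling markers (9 measured) 7.14 to 8.13 in transgenic and 7.67 to 8.03 in wild type. Of the 9 cycling genes 0 had a positive difference, the median was -0.25, and 2 were lower with an unadjusted p under 0.05. Stromal markers (9 measured) read 4.91 to 5.05 in transgenic and 4.81 to 5.02 in wild type, with a median difference of 0.01. Lymphoid markers (12 measured) read 4.60 to 4.92 in transgenic and 4.88 to 5.12 in wild type. Their median difference was -0.01, the lowest was -1.17, and 2 were lower with an unadjusted p under 0.05 in limma. Mast cell and basophil markers (7 measured) read 4.003 to 4.22 in transgenic and 4.01 to 4.36 in wild type. Their median difference was 0.01. At an unadjusted p under 0.05 in limma, 5 of the 6 megakaryocyte and 4 of the 8 erythroid markers were lower. At this p 3 of the 4 multipotent progenitor, 4 of the 10 endothelial and 1 of the 11 granulocyte and monocyte markers were higher. Of all tested probe sets 3.7% were higher and 2.9% lower. The part of these cell types in the differences of the factor genes was not tested.

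The relatives and partners of the factor genes gave few differences. Of 23 other ETS factors measured, 0 passed the threshold, 4 were higher with an unadjusted p under 0.05 and 0 were lower, and the median difference was 0.05. Of all tested probe sets 3.7% were higher and 2.9% lower at this p in limma, which is also the comparison for the lists below. On every array 7 of the 23 stayed below the median of all values. Elk3, a repressor of the ternary complex type, read 8.33 ± 0.07 in transgenic and 8.08 ± 0.11 in wild-type cells (SD, 5 arrays each; difference 0.24, limma adjusted p = 0.426). Etv3, a repressor, read 7.42 ± 0.30 in transgenic and 6.92 ± 0.25 in wild-type cells (difference 0.50, limma adjusted p = 0.448). Spic, a factor of red pulp macrophages, read 6.80 ± 0.51 in transgenic and 5.67 ± 0.82 in wild-type cells (difference 1.14, limma adjusted p = 0.470). Spi1 (PU.1) completed the 4, with a difference of 0.33. The other PRDM factors (11 measured) had 0 genes past the threshold and 0 with an unadjusted p under 0.05. Their median was -0.06, and their smallest p values were those of Prdm13 (-0.18), Prdm6 (-0.19) and Prdm2 (-0.38). On every array 4 of the 11 stayed below the median of all values.

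Meis1's TALE partners and paralogs (7 measured) and Hlf's PAR bZIP relatives (Dbp, Tef and the opposing repressor Nfil3) likewise had 0 genes past the threshold and 0 with an unadjusted p under 0.05. The smallest p values of the TALE list were those of Meis2 (-0.17), Pknox1 (-0.48) and Meis3 (-0.18), and Dbp, Tef and Nfil3 differed by 0.16, 0.07 and -0.14. Mllt3's partners in the super elongation and DOT1L complexes (17 measured) also had 0 of either kind, with a median of 0.06. The 3 with the smallest p were the elongation factor gene Ell (0.21), the histone methyltransferase gene Dot1l (-0.26) and the cyclin gene Ccnt2 (-0.22).

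Of 20 corepressor genes through which such factors act, 0 passed and 1 had an unadjusted p under 0.05. That was Gatad2b, a subunit of the NuRD complex, at 9.21 ± 0.14 in transgenic and 8.81 ± 0.29 in wild-type cells (SD, n = 5 each; difference 0.40, limma adjusted p = 0.484). Tbl1x, of the NCoR complex, differed by 0.34, and Ctbp2, a corepressor bound by Mecom and Prdm16 proteins, by -0.17.

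Among 17 other blood stem cell factors, Gfi1, a repressor that restrains HSC division, rose by 0.64 (6.44 ± 0.19 in transgenic and 5.80 ± 0.07 in wild-type cells, SD, n = 5 each; limma adjusted p = 0.0335), and 0 of the 17 passed in the lower direction. At an unadjusted p under 0.05, 1 was higher (Gfi1) and 3 were lower (Tal1, Lmo2 and Myb), and 9 of the 17 differences were positive. Tal1 and Lmo2, partners in one DNA-binding complex, differed by -0.22 and -0.30 (limma adjusted p = 0.532 and 0.601), and Myb by -0.20. Gata2 and Runx1 differed by -0.17 and 0.24. The list median was 0.01.

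Genes reported elsewhere as targets of the factors included the second gene past the threshold. Egfl7, a secreted endothelial factor and a target of Erg, rose by 1.21 (8.20 ± 0.17 in transgenic and 6.99 ± 0.40 in wild-type cells, SD, n = 5 each; limma adjusted p = 0.0260). Of the 14 measured targets 1 passed, and the median difference was 0.29. With an unadjusted p under 0.05 in limma 7 were higher and 1 was lower, against 3.7% and 2.9% of all tested probe sets. Vwf, Flt3, Cdh5 and Cldn5 also stand in the marker lists above, so they are counted in both places. The other endothelial targets of Erg were von Willebrand factor, Vwf, at 1.28 (adjusted p = 0.110), Cdh5 at 1.48 (adjusted p = 0.305), Cldn5 at 0.44 (adjusted p = 0.231) and Eng at 0.18 (adjusted p = 0.928, all in limma), beside 0.09 for Erg itself. Meis1's reported targets Flt3, Hif1a and Myb differed by 1.53, 0.25 and -0.20, beside -0.16 for Meis1, and Nkx2-3's target Madcam1 differed by 0.00, beside 0.19 for Nkx2-3. With the array set as a block Vwf passed as well (limma adjusted p = 0.0256). That block also brought 6 further genes of these lists to an unadjusted p under 0.05, with 0 of the 6 past the threshold: Aff1 of the Mllt3 partners was higher (0.31), and Pknox1 (-0.64), Etv5 (-0.50), Gata1 (-0.44), Rbbp4 (-0.22) and Ctbp2 (-0.20) were lower. This list holds several genes that were known to differ in these data when it was drawn up.

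**Figure D4:**
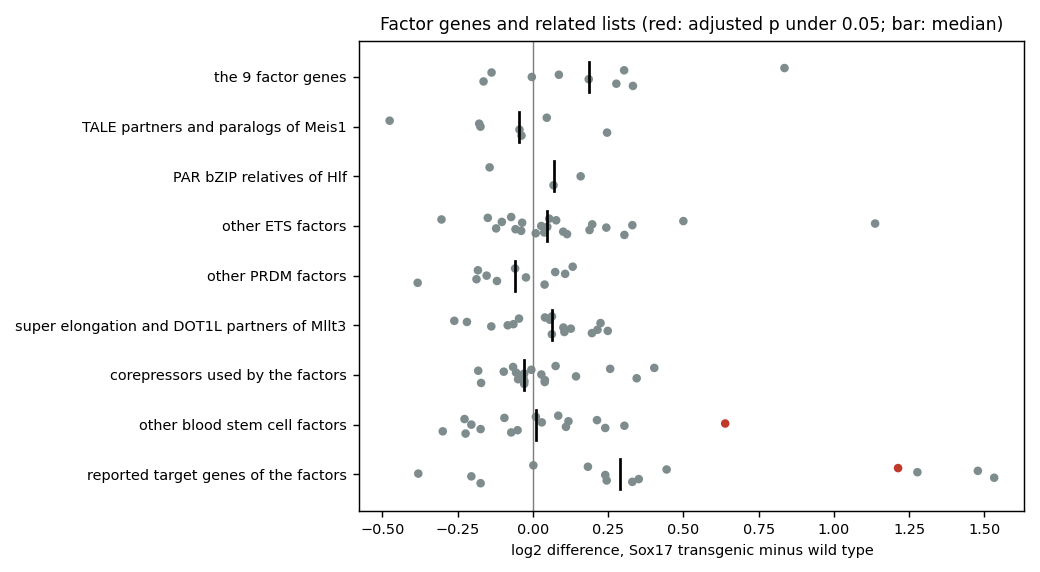
Points give the log2 difference (x axis, Sox17 transgenic minus wild type) of each measured gene in the 9 factor genes and the 8 related lists (y axis), red where the adjusted p is under 0.05, with a bar at the median. The red points are Gfi1 and Egfl7, and all 9 factor genes are grey.

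For each factor gene, the 3 genes with the most similar values over the 10 arrays were taken from 9384 genes brighter than the median tested probe set. Pearson's r of these 27 genes was 0.852 to 0.978, and 0.821 to 0.988 after the means of the array sets were removed. They are the highest of many, share arrays and array sets with the factor genes, and carry no test. Mecom was closest to Il4ra (r = 0.948), Klf3 (0.946) and Uso1 (0.938). Prdm16 was closest to Dnajb9, Igf1 and Phactr2 (0.921 to 0.908), and Mllt3 to Ctnnd1, Ric1 and Mfsd6 (0.954 to 0.950). Zfp521 was closest to Tmed10 (0.978), Nsd2 (0.969) and Tcf7l2 (0.967). Erg was closest to Mtdh, Ccdc25 and Rbpj, the DNA-binding partner of Notch, and Etv6 to Diaph3, Jade3 and Hk2. Hlf was closest to Mrpl19, Psmd7 and Gcnt2, Meis1 to Ddx1, Cd99l2 and Myom1, and Nkx2-3 to Acadvl, Ctsl and Fez2. Of these 27 genes 0 passed the threshold between the groups in limma, with a smallest adjusted p of 0.211.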

How the data were processed

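Per the submitters' processing notes, the authors deposited log2 expression values made with RMA (robust multi-array averaging), and the notes name affy and limma without versions. Per the labels' protocols, the RNA was amplified before it was labelled and hybridized. RMA makes the arrays' distributions alike and compresses differences between low values. An array has no read depth, so precision is limited by how many arrays there are.

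The 35556 probe sets were named from the platform annotation: 21789 had 1 gene symbol, 1621 several and 12146 are unnamed here. The 23410 named probe sets were fitted with limma 3.58.1 in R 4.3.3 (lmFit, then eBayes; two-sided tests of transgenic over wild type; Benjamini-Hochberg adjustment, threshold 0.05). The fit was also tested on simulated data, where a difference of 0.5 log2 units was recovered in 28% of cases. Smaller differences, such as those of most factor genes here, were not simulated. The share of false calls in that simulation was 10.4%, above the nominal threshold. It drew independent normal values for each probe set, without array sets. Neither share therefore measures the rate on the real arrays. Groups and replicate numbers come from the sample titles.

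The factor genes, lists, tests and rule for named genes were chosen with earlier results of these data known. The rule names the 9 factor genes, their 3 most similar genes (highest Pearson correlation over the arrays, without predicted models, clones, small RNAs or olfactory and vomeronasal receptor genes), and the 3 genes with the smallest p of each related list. Spi1, Myb, Gata2, Runx1, Hif1a, Madcam1, Cdh5, Cldn5, Eng, Aff1, Etv5, Gata1, Rbbp4, Cd48 and Pf4 were named after their values were seen. Some listed genes are not analysed here. Promoter sequences are RefSeq's, build GRCm38.p6.

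Alternatives were a block for the replicate number, quantile normalization, median centring, brighter or all probe sets, trend and robust eBayes, array weights, a floor at the 20th percentile, a Welch test, a threshold of 0.01, the array set as a block and within sets, leaving out each array, and averaging a gene's probe sets.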

Additional observations from a re-analysis of the deposited data

Results flagged for a closer look

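A value was taken up here where, in a group of 5 arrays, its gap to the nearest other array exceeded 0.71 of the group's range. This held in 6 of the 70 groups of 5 looked at, where chance alone gives about 1 in 20. Nkx2-3 read 6.29 on transgenic array 4, the male array, against 5.92 to 5.996 on the other transgenic arrays. Tbl1x read 8.39 on transgenic array 5, against 8.74 to 8.85 on the others of its group. Ctbp2 read 7.25 on wild-type array 1, against 6.93 to 7.02 on the other wild-type arrays. The remaining 3 were on wild-type array 4, which also had the lowest value of 8 of the 9 factor genes: Elk3 at 7.89 (8.11 to 8.15 on the others), Prdm13 at 5.54 (5.00 to 5.15) and Flt3 at 6.14 (7.10 to 7.48).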

How the results depend on the processing

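The count of 0 factor genes past the threshold held in each setting run. The number of probe sets past it was 33, and it was 15 with all probe sets tested, 8 with a floor at the 20th percentile, 1 with the Welch test, 91 with the array set as a block, 4 within set A, 6 within set B, 7 at a threshold of 0.01, and 15 to 71 when 1 array was left out (15 without transgenic array 4, 19 without transgenic array 3, 71 without transgenic array 2, and 20, 18, 16, 17 and 17 without wild-type arrays 1 to 5). The number of factor genes with an unadjusted p under 0.05 was 4, a count added after seeing the data. It was 1 with the Welch test, 5 within set A, 1 within set B, 5 with the array set as a block and 2 to 4 with 1 array left out. Of all tested probe sets 6.59% had such a p in the main fit and 8.34% with that block. For the other settings this share is not given here. Of the 9 differences 8 kept their sign in all 23 settings. The exception was Hlf, whose difference of -0.00 was 0.00727 under median centring and -0.0623 to 0.0458 with 1 array left out. Mecom ranged from 0.20 to 0.43, Mllt3 from 0.12 to 0.40, Prdm16 from 0.06 to 0.41 and Zfp521 from 0.46 to 1.01, with smallest adjusted p of 0.107, 0.285, 0.474 and 0.194. With 1 array left out, Etv6 ranged from -0.21 to -0.05, Erg from 0.04 to 0.13, Nkx2-3 from 0.12 to 0.25 and Meis1 from -0.21 to -0.11. After each group's mean was subtracted, the correlation of same-numbered arrays ran from -0.14 to 0.28. By this measure 0 of 5 transgenic arrays correlated best with the wild-type array of their own number. These correlations also carry the split into array sets, so they cannot decide whether equal numbers pair the arrays. With the replicate block 33 probe sets, 0 factor genes past the threshold and 3 with an unadjusted p under 0.05 resulted. That fit gave Zfp521 its smallest adjusted p of all settings (0.194 in limma). The cause of these shifts was not tested.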
